A study of Mus musculus with 16 samples.

Results

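The proteasome is the large protease that unfolds and degrades proteins tagged with ubiquitin. Its hollow core is built from rings of alpha subunits (Psma genes) and beta subunits (Psmb genes), and the beta rings hold the cutting sites. A regulatory cap made of a base, with ATPases (Psmc genes) and other subunits, and a lid (both from Psmd genes) receives and unfolds the substrates, while activators (Psme genes) can open the core without the cap. Testis is known for a germ cell alpha subunit, Psma8, and for the activator Psme4. The genes described here are those whose symbols run from Psma to Psmg followed by a number, found by symbol in a table of 35920 genes: 48 genes in all. By role they comprise 7 core alpha subunits, Psma8, 7 core beta subunits, 4 immune or thymic beta subunits, 6 base ATPases, 3 other base subunits, 8 lid subunits, 3 base assembly chaperones, 4 activators, the regulator Psmf1 and 4 core assembly chaperones. They were chosen by name and not by their values.

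Mouse testis RNA was passed over J2, a mouse monoclonal antibody (IgG2a, kappa) against double-stranded RNA, and 16 libraries were sequenced from what it captured (J2) or left behind (flow-through, described as depleted of rRNA and dsRNA). At postnatal day 18 (P18), wild-type testis gave 3 flow-through and 3 J2 libraries, testis of the Dcr-/- genotype (Dicer knock-out) at P18 gave 3 and 3, and adult wild-type testis gave 2 and 2. The P18 mice of both genotypes were C57BL/6 x 129S4/SvJae and the strain of the adults is given as unknown, so age and strain cannot be told apart. The labels name no Cre driver or cell type for the knock-out, and Dicer1 itself was at 0 in 7 libraries with 13.7 as its highest value, too low to check the genotype. They do not say that replicates came from separate animals, so each p-value below measures only how these samples spread, and that spread may be technical. In bulk testis RNA, fewer cells of a type and less RNA per cell cannot be told apart.

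The values are normalized counts from the authors' table, called values below, which are not corrected for transcript length and are therefore compared between libraries and not between genes. The subunits were thinly read in flow-through. Column totals, in units of the table, ranged from 6053860 to 34859600 in flow-through but from 445600 to 823730 in J2. The worth of a single read, approximated from values that several genes share, was 2 to 8.31 units in flow-through and 0.116 to 0.516 units in J2. Roughly, 1.2 to 5 reads lay behind a flow-through value of 10, whereas 19 to 86 lay behind the same value in J2. Over all 48 subunits together, each flow-through library held about 104 to 401 reads and each J2 library about 4650 to 9860. The median per subunit and library was 2.5 reads in flow-through and 59 in J2. Differences between the fractions below compare well-read J2 values with flow-through values that often rest on a few reads. All 7 meiotic germ cell markers checked (Sycp1, Sycp3, Piwil1 and others) reached 10 in 1 or more libraries of each of the 6 groups. The 7 leukocyte markers summed to 19.4 to 74 in flow-through and 2.45 to 89.2 in J2 of the wild type at P18. In the knock-out they summed to 42.9 to 98.9 and 23.5 to 185, and in adults to 15.2 to 50.3 and 16.6 to 29.6. Of the 7, 3 were at 0 in all wild-type P18 flow-through libraries and 2 in all wild-type P18 J2 libraries. In adults 2 were at 0 in all flow-through libraries and 1 in all J2 libraries, and in the knock-out 0 in either fraction. Lyz2 alone gave 142.4 in knock-out J2 replicate 3 and 72.4 in wild-type P18 J2 replicate 3. In limma 0 of the leukocyte markers tested were called between the genotypes in either fraction.

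**Figure D1:**
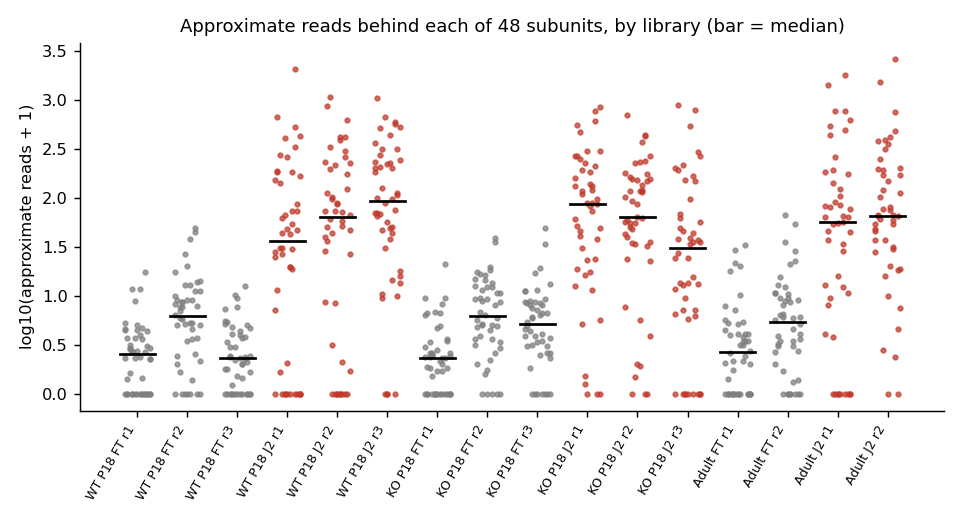
Approximate reads behind each of the 48 subunits in each library, as log10(reads + 1), with the library's median as a bar (FT, flow-through; r, replicate; WT, wild type; KO, knock-out). The flow-through libraries (grey) sit low, with 86.2% of their values under 10 reads, against 22.7% in the J2 libraries (red).

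Of the 48 subunits, 40 reached a value of 10 in 2 or more libraries and were tested between fractions, and 15 were above 0 in all 16 libraries. The 8 below this filter were the immune and thymic subunits Psmb8, Psmb9, Psmb10 and Psmb11, the base chaperone Psmd10, and the core chaperones Psmg2, Psmg3 and Psmg4. Psmb8, Psmb9 and Psmb10 replace the cutting subunits of the core in immune cells. Psmb8 was listed above 0 in 1 library (1.80 in wild-type J2 replicate 3), and so was Psmb9 (0.255 in knock-out J2 replicate 2). Psmb10 was 0, 3.15 and 10.4 in wild-type P18 flow-through and 0 in all 3 wild-type P18 J2 libraries (replicates 1, 2 and 3 in this order throughout). In the knock-out it was 0, 3.26 and 0 in flow-through against 4.97, 0 and 3.19 in J2. In adults it was 6.87 and 0 in flow-through against 0 and 0.161 in J2. The inducible cutting subunits were thus at or near 0 in most libraries of either fraction.

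In J2 against flow-through, the core subunit Psmb1 was higher in J2 in both P18 genotypes, and no subunit was lower. Psmb1 encodes a beta subunit that carries no cutting site. It stood at 2.42, 8.14 and 20.02 in wild-type P18 flow-through and at 284.8, 262.0 and 207.3 in wild-type P18 J2. In the knock-out it stood at 7.10, 7.68 and 5.71 in flow-through against at 121.7, 179.4 and 459.9 in J2. In adults it stood at 2.03 and 4.69 in flow-through against at 351.2 and 44.1 in J2. Each of the 8 J2 libraries lay above each of the 8 flow-through libraries, and the J2 values of the knock-out and the adults spread more widely than those of the wild type at P18. On the log2(value + 1) scale the difference was 4.85 (SE 0.89; limma adjusted p = 0.012) in the wild type and 4.80 (SE 0.89; adjusted p = 0.016) in the knock-out. In adults it was 4.92 (SE 1.09), which did not pass (adjusted p = 0.067). The flow-through values of Psmb1 correspond to about 0.41 to 4.06 reads per library and the J2 values to about 381 to 1420, so the size of the difference is loosely fixed. Psmb1 reached 10 in just 1 flow-through library and therefore entered the test through its J2 values. The call in the wild type ended without flow-through replicate 1 (4.17, adjusted p = 0.076). The call in the knock-out ended without any 1 of its libraries other than J2 replicate 1 (adjusted p of 0.056 to 0.13). A header code shared by 1 J2 and 1 flow-through library, not said to be an animal, was also fitted as a replicate block. With it, 0 subunits were called in either P18 genotype.

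Psmb1 was the 1 subunit of 40 called higher in wild-type P18 J2, where 0.525% of the 9526 genes tested were called higher, and 0 of 40 were called lower (0.378% of all genes). At an unadjusted p under 0.05, 10 subunits were higher and 1, Psmd13, was lower, where 13.9% of all genes passed that limit in either direction. In the knock-out 1 of 40 was called higher (0.168% of all genes) and 0 lower (0.189%), with 5 higher and 0 lower at an unadjusted p under 0.05, beside 11.5% of all genes in either direction. In adults 0 of 40 were called higher (0.147%) and 0 lower (0.168%), with 5 higher and 0 lower unadjusted (6.64% of all genes). The median log2 difference of the subunits tested was 1.06 in the wild type, 0.92 in the knock-out and 0.37 in adults, beside -0.05, -0.15 and 0.05 over all genes tested. The adult median was 0.08 without adult J2 replicate 1, where that of all genes was 0.43, so the order turned, and 0.56 without replicate 2, beside -0.53. The difference was above 0 for 30, 26 and 23 of the 40 subunits. Psmb1, Psmc1 and Psme2 passed the filter only through their J2 values, which favours a lean towards J2. These counts therefore describe the subunits and support nothing further. Rescaling every library to a common total, taken without the mitochondrially encoded genes, moved the medians of the subunits to 4.12, 3.86 and 3.43. Those of all genes moved to 1.87, 2.16 and 2.74, so the differences here are relative to the median gene and are not amounts of RNA. Under this rescaling, 2562 genes were called higher and 13 lower in the wild type, beside 50 and 36 as deposited.

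**Figure D2:**
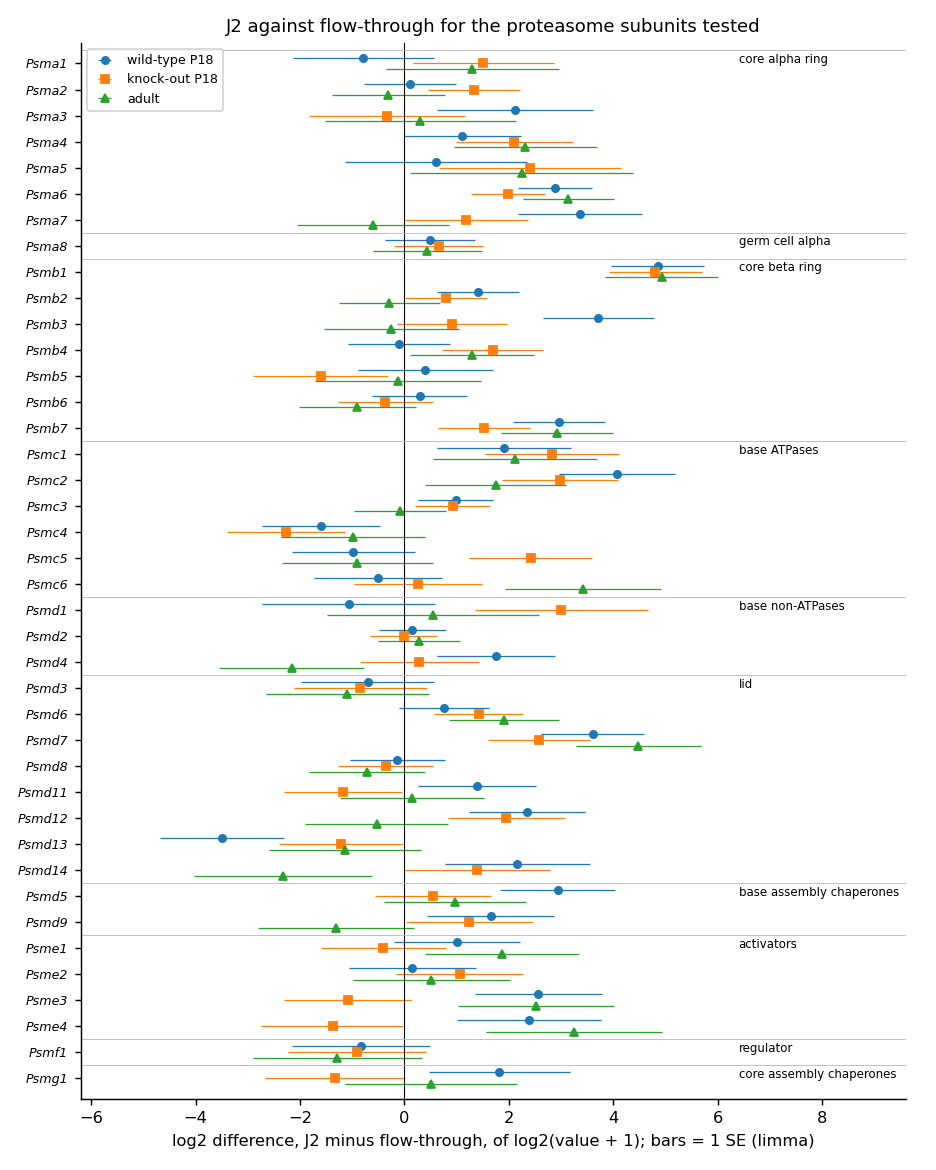
Difference between J2 and flow-through of log2(value + 1) for the 40 subunits tested, by role, with 1 SE from limma, in wild-type P18 (circles), knock-out P18 (squares) and adults (triangles). Psmb1 lies between 4.80 and 4.92 in all 3 conditions, and many other subunits change place between conditions. Psmb1 entered the test through its J2 values, and its flow-through values rest on about 0.41 to 4.06 reads per library. The size of its difference is therefore loosely fixed.

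The 3 conditions were then averaged in a single contrast, chosen after the values of each condition had been seen. It called 5 of 40 subunits higher in J2 (1.95% of all genes) and 0 lower (2.12% of all genes), with 10 higher and 2 lower at an unadjusted p under 0.05 (19.8% of all genes in either direction). The 5 were core subunits Psmb1, Psma6 and Psmb7, base ATPase Psmc2 and lid subunit Psmd7. In Psma6, Psmb1, Psmb7 and Psmd7, each J2 library lay above each flow-through library over all 8 and 8, a pattern that 0.472% of all genes tested share. The same 4 were also those with J2 above flow-through within each of the 3 conditions (1.05% of all genes). The reverse patterns were found for 0 subunits (0.598% and 1.14% of all genes). Psmb1 had a mean difference of 4.86 (SE 0.55; adjusted p = 2.5e-05), with the limit that it was tested through its J2 values.

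The plus-strand stretches of 250 bases before the annotated starts of Psma6 and Psmc2 are shown because these are the 2 of the 5 called subunits with an entry in the RefSeq promoter table (build GRCm38.p6). Each gene has 2 annotated starts there. Capitals mark matches on either strand to 3 motifs that do not overlap each other there. The motif CCAAT is the box bound by the factor NF-Y, and CCGGAAG is a site of ETS factors. The antioxidant response element, searched as TGACNNNGC, has no match in these stretches.
Psma6, chr12:55383972-55384221: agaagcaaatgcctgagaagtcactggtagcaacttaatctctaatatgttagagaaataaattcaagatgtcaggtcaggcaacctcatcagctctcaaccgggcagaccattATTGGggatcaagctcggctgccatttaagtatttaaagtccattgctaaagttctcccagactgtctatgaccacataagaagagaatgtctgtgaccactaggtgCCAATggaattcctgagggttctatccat
Psma6, chr12:55398575-55398824: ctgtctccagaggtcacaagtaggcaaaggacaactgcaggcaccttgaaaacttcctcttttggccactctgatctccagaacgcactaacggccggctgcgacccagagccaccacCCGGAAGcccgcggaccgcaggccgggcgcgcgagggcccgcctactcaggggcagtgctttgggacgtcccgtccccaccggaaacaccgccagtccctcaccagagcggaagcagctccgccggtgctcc
Psmc2, chr5:21785025-21785274: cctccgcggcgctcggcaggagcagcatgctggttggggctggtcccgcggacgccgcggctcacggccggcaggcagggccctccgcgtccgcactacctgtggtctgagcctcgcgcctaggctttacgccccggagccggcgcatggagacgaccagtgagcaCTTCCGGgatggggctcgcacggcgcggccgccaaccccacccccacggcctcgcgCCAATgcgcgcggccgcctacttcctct
Psmc2, chr5:21786497-21786746: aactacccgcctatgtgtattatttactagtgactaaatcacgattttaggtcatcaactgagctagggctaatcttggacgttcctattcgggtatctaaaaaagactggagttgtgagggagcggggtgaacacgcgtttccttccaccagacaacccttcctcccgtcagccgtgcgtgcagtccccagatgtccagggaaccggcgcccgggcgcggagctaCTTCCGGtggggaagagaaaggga
Psma6 has its CCAAT matches before the first start and its CCGGAAG match before the second. Psmc2 has a CCGGAAG match before both starts and a CCAAT match before the first. Of the 48 subunits, 40 have an entry. Psma8, Psmb1, Psmb2, Psmb7, Psmc3, Psmd3, Psmd7 and Psmg2 have none. CCGGAAG was found in 12 of these 40 (30%) and in 7.83% of all 27025 genes with an entry. Besides Psma6 and Psmc2 the 12 are Psmc1, Psmc6, Psmd2, Psmd4, Psmd6, Psmd11, Psmd12, Psme3, Psme4 and Psmg1. CCAAT was found in 14 (35%, against 37.5% of all genes) and TGACNNNGC in 5 (12.5%, against 11.5%). A match is a description of these letters and not a bound site.

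Psma6 is an alpha ring subunit on chromosome 12 (GRCm38.p6, 55384222 to 55418459). It stood at 11.7, 12.0 and 16.7 in wild-type P18 flow-through against 115.1, 98.2 and 102.0 in J2. The knock-out had 13.0, 17.3 and 9.30 in flow-through against 103.8, 41.6 and 34.98 in J2, and the adults had 14.5 and 18.4 in flow-through against 132.6 and 174.4 in J2. Both adult J2 libraries lay above all 3 wild-type P18 J2 libraries, as in 18.7% of all genes tested. Knock-out J2 replicates 2 and 3 lay below the wild-type P18 J2 libraries. The mean difference was 2.67 (SE 0.44; limma adjusted p = 0.0022). Within conditions it was 2.89 in the wild type (SE 0.71; adjusted p = 0.062) and did not pass alone. Among the other alpha ring subunits, Psma7 differed by 3.37 in the wild type, 1.18 in the knock-out and -0.61 in adults, and none of the 6 passed in any condition. The median of the 7 alpha ring subunits was 1.10 in the wild type, 1.51 in the knock-out and 1.30 in adults.

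Psmb7 encodes the beta subunit with the trypsin-like cutting site. It stood at 11.3, 13.5 and 11.9 in wild-type P18 flow-through against 59.7, 319.4 and 55.0 in J2. In the knock-out it stood at 11.1, 5.96 and 21.5 in flow-through against at 54.6, 29.7 and 25.1 in J2, and in adults at 7.94 and 5.32 in flow-through against at 109.1 and 28.4 in J2. Wild-type J2 replicate 2 was far above the other J2 libraries, and knock-out J2 replicate 3 came closest to flow-through. The mean difference was 2.47 (SE 0.55; limma adjusted p = 0.017). It did not pass without adult flow-through replicate 1 (adjusted p = 0.053) or without adult J2 replicate 1 (adjusted p = 0.091). Nor did Psmb7 pass with the header code as a replicate block. The pseudogene Gm13586 overlaps 642 bases of its span. The other 2 subunits with a cutting site, Psmb5 and Psmb6, differed by 0.40 and 0.29 in the wild type, -1.61 and -0.36 in the knock-out, and -0.13 and -0.90 in adults, and none of these passed. Psmb3 differed by 3.71 in the wild type (SE 1.06; adjusted p = 0.097), with 0, 8.57 and 0 in flow-through against 22.7, 21.1 and 40.2 in J2, but by 0.92 in the knock-out. The 7 beta ring subunits had a median difference of 1.41 in the wild type, 0.92 in the knock-out and -0.13 in adults.

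Psmc2 is a base ATPase, a member of the ring that unfolds substrates and threads them into the core. It stood at 0, 20.5 and 23.3 in wild-type P18 flow-through against 223.1, 90.7 and 118.0 in J2. The knock-out had 10.5, 14.3 and 23.0 in flow-through against 45.7, 108.7 and 405.8 in J2, and the adults had 14.7 and 59.4 in flow-through against 189.7 and 55.1 in J2. Adult flow-through replicate 2 lay above adult J2 replicate 2, so the fractions overlap in adults and not at P18. The mean difference was 2.93 (SE 0.69; limma adjusted p = 0.024), and it did not pass without adult flow-through replicate 1 (adjusted p = 0.13), without adult J2 replicate 1 (adjusted p = 0.12) or without the filter on low values (adjusted p = 0.075). Nor did Psmc2 pass with the header code as a replicate block. The wild-type difference was 4.06 (adjusted p = 0.083). None of the other 5 base ATPases passed in any condition. Psmc4 differed by -1.60, -2.27 and -0.98 in the wild type, knock-out and adults, and Psmc5 by -0.98, 2.42 and -0.90. The median of the 6 base ATPases was 0.24 in the wild type, 1.67 in the knock-out and 0.83 in adults.

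Psmd7 is the lid subunit that pairs with Psmd14, the enzyme that removes ubiquitin from substrates. It stood at 11.5, 8.13 and 5.47 in wild-type P18 flow-through against 179.7, 68.5 and 104.8 in J2. The knock-out had 11.8, 15.5 and 7.60 in flow-through against 184.5, 68.6 and 28.8 in J2, and the adults had 0 and 6.67 in flow-through against 155.7 and 23.3 in J2. The lowest J2 library, adult replicate 2, was above the highest flow-through library, knock-out replicate 2. The mean difference was 3.55 (SE 0.61; limma adjusted p = 0.0028), and the difference was 3.60 in the wild type (adjusted p = 0.083), 2.58 in the knock-out and 4.48 in adults. Psmd14 itself differed by 2.16 and 1.39 at P18 and by -2.33 in adults. Another lid subunit, Psmd13, leaned the other way in the wild type (-3.49, SE 1.19; adjusted p = 0.17). Its values there were 23.7, 16.01 and 69.9 in flow-through against 19.96, 0 and 0 in J2. The 8 lid subunits had a median of 1.07 in the wild type, 0.51 in the knock-out and -0.62 in adults.

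**Figure D3:**
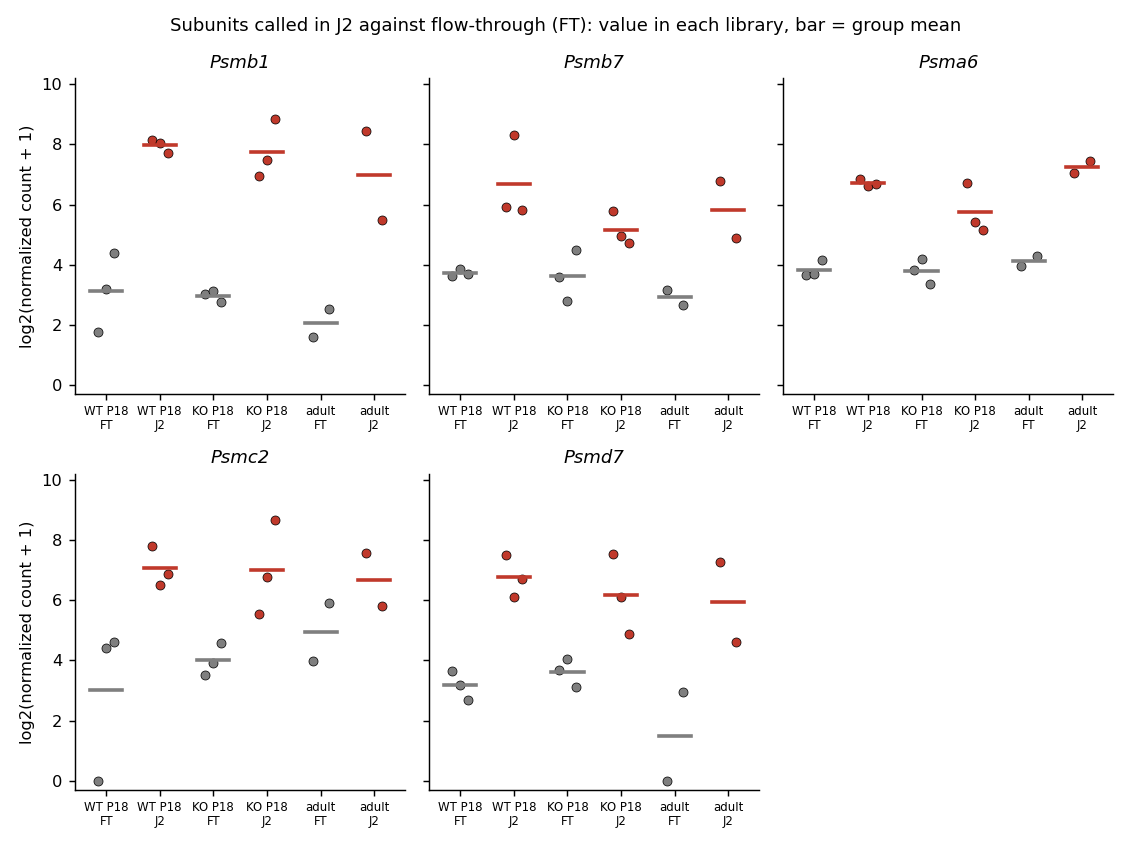
Values of the 5 subunits called in the mean of the 3 conditions, as log2(normalized count + 1) in each library, with flow-through (FT) in grey, J2 in red and the mean of the log2 values as a bar. The fractions do not overlap for Psmb1, Psmb7, Psma6 and Psmd7, and overlap for Psmc2 in adults.

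Among the other base subunits, Psmd2, a docking subunit for ubiquitin receptors, was above 0 in all 16 libraries. It stood at 99.8, 96.0 and 95.9 in wild-type P18 flow-through and at 139.4, 79.2 and 114.0 in J2. The knock-out had 163.7, 77.6 and 90.1 in flow-through against 132.2, 110.7 and 75.5 in J2, and the adults had 156.4 and 45.8 in flow-through against 122.5 and 86.6 in J2. The fractions overlapped in each condition, and the differences were 0.15 (SE 0.64), -0.02 (SE 0.64) and 0.28 (SE 0.78). Psmd1, the other large base scaffold, stood at 0, 20.2 and 30.7 in wild-type P18 flow-through and at 0, 19.9 and 2.47 in J2. In the knock-out it was 0, 19.6 and 33.5 in flow-through against 65.8, 39.15 and 135.7 in J2, a difference of 3.004 (SE 1.66; limma adjusted p = 0.51), and in adults 0 and 8.81 against 0 and 19.8. Each of its 3 knock-out J2 values lay above its value in every other library, a pattern whose share over all genes was not computed. Other groups held replicates at 0 beside replicates well above it. The base chaperones Psmd5 and Psmd9, which help to assemble the ATPase ring, differed by 2.93 (SE 1.11; limma adjusted p = 0.23) and 1.65 in the wild type, 0.55 and 1.24 in the knock-out, and 0.97 and -1.32 in adults, and did not pass.

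The germ cell subunit Psma8, which takes the place of Psma7 in the alpha ring of testis proteasomes, passed in no comparison between fractions. It stood at 20.9, 38.0 and 56.0 in wild-type P18 flow-through and at 111.2, 25.9 and 43.8 in J2. The knock-out had 14.4, 17.1 and 17.0 in flow-through against 65.7, 21.6 and 12.1 in J2, and the adults had 14.8 and 19.9 in flow-through against 13.5 and 40.7 in J2. The fractions overlapped in all 3 conditions, and replicate 1 was the highest J2 library at P18 in both genotypes. The differences were 0.49, 0.66 and 0.44 in the wild type, knock-out and adults, with SEs of 0.86, 0.86 and 1.05.

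Psme4, the activator that in testis is linked to the loss of acetylated histones from spermatids, spread widely within groups. It stood at 10.03, 87.7 and 11.5 in wild-type P18 flow-through and at 884.4, 126.1 and 14.6 in J2. The knock-out had 69.0, 70.3 and 132.3 in flow-through against 167.6, 59.9 and 2.73 in J2, and the adults had 12.0 and 112.1 in flow-through against 440.0 and 298.5 in J2. Both adult J2 libraries lay above both adult flow-through libraries, as in 18.4% of all genes tested. At P18 the J2 replicates ran from 14.6 to 884.4 in the wild type and from 2.73 to 167.6 in the knock-out. The differences were 2.39 (SE 1.38; limma adjusted p = 0.46), -1.37 (SE 1.38; 0.75) and 3.25 (SE 1.69; 0.77), so none passed. The gene Erlec1 overlaps 18357 bases of the span of Psme4 and had values up to 149. Whether the counting used strand is not given in the sources used here. The interferon-inducible activators Psme1 and Psme2 differed by 1.01 and 0.15 in the wild type, -0.41 and 1.05 in the knock-out, and 1.86 and 0.52 in adults. Psme3, the nuclear activator, differed by 2.57, -1.09 and 2.52 in the same order. None of these passed.

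The regulator Psmf1, an inhibitor of the core in the test tube, stood at 7.86, 8.43 and 9.90 in wild-type P18 flow-through and at 0, 21.8 and 6.02 in J2. The knock-out had 0, 10.9 and 7.87 in flow-through against 0.0597, 14.0 and 0 in J2, and the adults had 99.8 and 141.8 in flow-through against 64.3 and 36.2 in J2. All 4 adult libraries lay above all 12 P18 libraries, a pattern whose share over all genes was not computed. Adults lay above the wild type at P18 without overlap in 16.6% of all genes tested in flow-through and 18.7% in J2. Within adults both flow-through libraries of Psmf1 lay above both J2 libraries, as in 17.3% of all genes tested. The J2 difference did not pass in any condition (-0.84, -0.91 and -1.28). The core assembly chaperone Psmg1, which helps to build the alpha ring, stood at 0, 14.6 and 0 in wild-type P18 flow-through and at 2.62, 11.8 and 13.7 in J2. In the knock-out it was 16.6, 4.37 and 7.95 in flow-through against 2.53, 14.1 and 0 in J2, and in adults 0 and 3.54 in flow-through against 0.770 and 4.16 in J2. Its fractions overlapped in each condition and no difference passed.

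**Figure D4:**
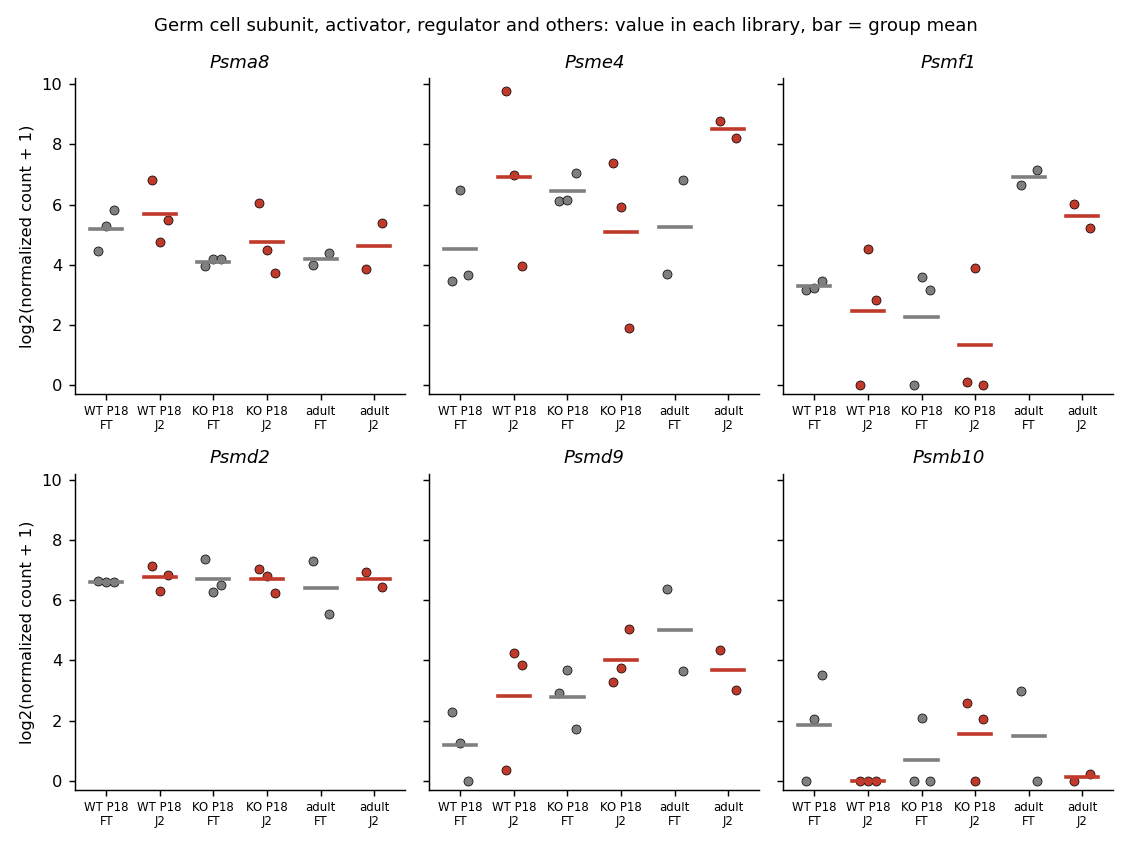
Values of Psma8, Psme4, Psmf1, Psmd2, Psmd9 and Psmb10 as log2(normalized count + 1) in each library, with flow-through (FT) in grey, J2 in red and the mean of the log2 values as a bar. Psmf1 is higher in all 4 adult libraries than in all P18 libraries, a pattern whose share over all genes was not computed. Psme4 spreads from 2.73 to 884.4.

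Over subunits, the groups did not overlap in J2 against flow-through as follows. In the wild type 10 of 40 were above flow-through in J2 (7.08% of all genes tested) and 0 below (8.30%). In the knock-out 12 were above (6.95%) and 1, Psmd11, was below (11.1%). In adults, where each group holds 2 libraries, 11 were above (18.4%) and 5 below (17.3%). Those above include Psmb1 in each condition and Psmc1 in adults. Both passed the filter only through their J2 values, which favours a lean towards J2, so the counts above support nothing further. The 5 below were Psmc5, Psmd4, Psmd13, Psmd14 and Psmf1. Psma6, Psmb1, Psmb7 and Psmd7 were above in all 3 conditions, and Psmc2 and Psmd12 at P18 in both genotypes.

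Between knock-out and wild type at P18, no subunit passed the test in either fraction. In flow-through 37 subunits were tested and 0 were called higher or lower (0% of 7141 genes), with 1 higher and 0 lower at an unadjusted p under 0.05 in limma (6.11% of all genes in either direction). That 1 was Psmb3, at 0, 8.57 and 0 in the wild type against knock-out values of 59.4, 23.1 and 8.37. Its groups overlapped, and the difference was 3.49 (SE 1.30; adjusted p = 0.79). In J2 40 were tested and 0 were called (0% of 6882 genes), with 1 higher, Psmd1 (4.10, SE 1.53; adjusted p = 0.72), and 0 lower unadjusted (6.39% of all genes). The median log2 difference of the subunits was 0.11 in flow-through and -0.35 in J2, beside 0.33 and 0.13 over all genes, and the flow-through median turned to -0.17 when libraries were scaled to a common total. It was -0.14 without wild-type flow-through replicate 1 and 0.40 without replicate 3. Psma8 was lower in all 3 knock-out flow-through libraries (14.4 to 17.1) than in all 3 wild-type ones (20.9 to 56.0), as was Psma4, a pattern that 3.04% of all genes share, but the Psma8 difference of -1.09 did not pass (adjusted p = 0.84). Psmd5 and Psmd11 were above without overlap (7.53% of all genes). In J2 the values of Psmc5 and Psmd1 were above the wild type without overlap (6.12%) and those of Psma3, Psmb7 and Psme1 below (3.78%). The change of the J2 difference with genotype was also tested directly: 0 of 40 were called (0% of 9526 genes), with 0 higher and 1 lower unadjusted (4.78% of all genes), and the lowest adjusted p of a subunit was 0.99.

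Between adult and wild-type P18 testis, 0 of 37 subunits in flow-through were called higher (3.08% of all genes) or lower (0.154%), with 2 higher and 0 lower at an unadjusted p under 0.05 in limma (11.7% of all genes in either direction). In J2 0 of 40 were called higher (5.07%) or lower (0.392%), with 0 higher and 3 lower unadjusted. In this comparison 14.1% of all genes were under that limit in either direction, so the count of 3 subunits is no result about them. The spermatid markers checked (Prm1, Tnp1 and others) summed to 2.44 to 13.9 in wild-type P18 flow-through and to 1930 to 2120 in adult flow-through, and all 6 tested were called higher in adults, as were all 7 in J2. The part that spermatids have in any subunit's value was not tested. The 2 subunits higher at the unadjusted limit in adult flow-through were Psmf1 and Psmd9. Psmf1, with 7.86 to 9.90 at P18 and 99.8 and 141.8 in adults, differed by 3.63 (SE 1.15; adjusted p = 0.19), and it passed with a pseudocount of 5 or with just the 2 groups fitted. In J2 it differed by 3.18 (SE 1.81; adjusted p = 0.51). Psmd9 stood at 3.83, 1.37 and 0 in wild-type P18 flow-through and at 81.7 and 11.4 in adults, a difference of 3.83 (SE 1.37; adjusted p = 0.28). In the other libraries Psmd9 was 0.291, 18.0 and 13.4 in wild-type P18 J2, 6.61, 12.0 and 2.29 in knock-out flow-through, 8.75, 12.4 and 31.9 in knock-out J2, and 19.6 and 7.002 in adult J2.

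The 3 subunits under the unadjusted limit in adult J2 were Psma7, Psmb2 and Psmd14. Psma7, the general alpha subunit whose place Psma8 takes in germ cells, stood at 36.0, 187.1 and 22.5 in wild-type P18 J2 and at 2.40 and 1.99 in adult J2. Both adult values lay below all P18 ones, and the difference was -4.10 (SE 1.13; limma adjusted p = 0.079). Psmb2 differed by -2.61 (SE 0.90; adjusted p = 0.19), with 64.7, 70.1 and 71.5 at P18 and 20.2 and 5.15 in adults, and Psmd14 by -3.01 (SE 1.25; adjusted p = 0.31). Psma8 was 14.8 and 19.9 in adult flow-through, below the 3 wild-type P18 values, and its age groups overlapped in J2. The median difference of the subunits was -0.19 in flow-through and -0.57 in J2, beside 0.28 and 0.33 over all genes. The flow-through median ranged from -0.36 without wild-type replicate 1 to 0.05 without adult replicate 2. The J2 median rested on single adult libraries: it was -1.22 without adult J2 replicate 1 and 0.18 without adult J2 replicate 2. Groups did not overlap for 2 subunits above (16.6% of all genes) and 7 below (8.57%) in flow-through, and for 3 above (18.7%) and 8 below (8.83%) in J2. The change of the J2 difference with age called 0 of 40 (0% of 9526 genes), with 0 higher and 3 lower unadjusted (5.40% of all genes), and the lowest adjusted p was 0.83.

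**Figure D5:**
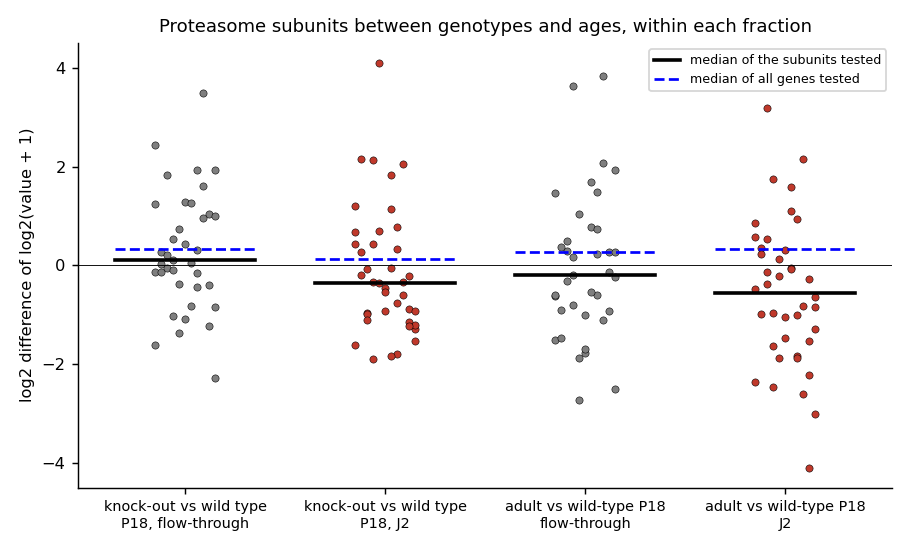
Differences of log2(value + 1) for each subunit tested, knock-out minus wild type at P18 and adult minus wild-type P18, within flow-through (37 subunits, grey) and J2 (40 subunits, red), with the median of the subunits (black) and of all genes tested (dashed). No subunit passed the test in these comparisons, and the widest points are Psmd1 at 4.10 and Psma7 at -4.10 in J2.

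Other genes of ubiquitin and proteasome biology were read from a list of 33, of which 32 were matched in the table. Within single conditions, genotypes and ages 0 of those tested were called in limma, with at most 2 higher and 3 lower at an unadjusted p under 0.05. In J2 against flow-through their median differences were -0.63 in the wild type, -0.44 in the knock-out and -0.34 in adults over 30 genes tested. In the mean of the 3 conditions 2 of 30 were called higher in J2 (1.95% of all genes) and 3 lower (2.12%). Akirin2, which brings proteasomes into the nucleus, differed by 3.64 (SE 0.72; adjusted p = 0.0085), with 0, 8.97 and 0 in wild-type P18 flow-through and 13.1, 86.5 and 81.3 in J2. Rps27a, which encodes ubiquitin fused to a ribosomal protein, differed by 3.35 (SE 0.70; adjusted p = 0.013). Among those lower were the ubiquitin-activating enzyme Uba1 (-2.73, SE 0.74; adjusted p = 0.045) and the ubiquitin ligase Ube3a (-2.72, SE 0.65; adjusted p = 0.025). Uba1 stood at 159.1, 83.3 and 16.9 in wild-type P18 flow-through and at 23.5, 0 and 49.0 in J2, so its groups overlapped there.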

How the data were processed

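RNA-seq of J2-bound and flow-through RNA was analysed from the authors' table of 1 value per Ensembl gene and library. Per the labels' protocols, libraries were strand-specific (NuGEN Ovation SoLo). The submitters' processing notes name FastQC, Trimmomatic, Salmon, DESeq2 and mm10; versions are not given in the sources used here. What the authors deposited is a gene signal in normalized counts, and DESeq2 was not rerun. Of the identifiers, 35446 matched a symbol and 474 did not. All columns were matched to libraries by label, and 0 pairs were identical. Whole reads could not be recovered, so no count test was run.

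The scale was log2(value + 1), and the test was limma 3.58.1 under R 4.3.3 (empirical Bayes, mean trend, two-sided, Benjamini-Hochberg over all genes tested, threshold 0.05), for genes that reached 10 in 2 or more fitted libraries. Fraction differences and interactions used all 16, and genotype and age comparisons the 8 of a fraction. Each gene had a single variance shared by all groups of the fit. A p-value for any condition therefore also draws on the spread of the other groups fitted. This scale understates changes of low genes. The script was tested on simulated data. Alternatives were other pseudocounts, filters and scalings, narrower fits, a replicate block and leaving out each library. Values in every library were printed for subunits called, Psma8, Psme4, Psmb8, Psmb9 and Psmb10, the subunit with the highest mean in each role, and the 2 largest J2 differences per condition; further values were chosen after they were seen. The subunits and lists were chosen with earlier results of these data known. Some items are not reported here.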

Additional observations from a re-analysis of the deposited data

How the results depend on the processing

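Of 641 alternative values computed for the counts, medians and called subunits, only those of single called subunits could be scored as a reversed direction. None of these reversed, 139 kept their call and 16 no longer passed. Of the counts called higher, 26 were scored as moved and 136 were not, and of those called lower 1 and 161. Of the medians 28 were scored as moved and 134 were not. The median of adults against P18 in J2 turned from -0.57 to 0.18 without adult J2 replicate 2. The wild-type P18 count called higher in J2 (1) became 2 with a pseudocount of 5, 2 without a filter, 4 with a filter at 50 and 29 with a common total, and ranged from 0 to 2 over single libraries left out. The knock-out count (1) became 0 without a filter and 29 with a common total, and 0 to 1 over libraries left out. The adult count (0) became 2 without a filter, 1 with a filter at 50, 22 with a common total, 1 with quantile normalization and 0 to 1 over libraries left out. The count for adults against P18 in flow-through (0) became 1 with a pseudocount of 5 and 1 with only the contrast's groups. The mean of the 3 conditions (5 higher, 0 lower) became 4 higher without a filter (Psmc2 no longer), 39 higher with a common total, and 3 to 5 higher and 0 to 1 lower over libraries left out; the lower one was called without wild-type J2 replicate 1. Over all genes, the common total called 2848 higher and 15 lower in the knock-out (16 and 18 as deposited), 3460 and 11 in adults (14 and 16), and 6230 and 17 for the mean (186 and 202). The 10 highest features held 95.75% to 98.83% of flow-through signal. That share was taken over all genes, whereas the common total left out the mitochondrially encoded ones.

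A code in the table's second header line is shared by 1 J2 and 1 flow-through library of each pair, and is not said to be an animal. Deviations correlated -0.026 to 0.031 within codes, and 4 of 8 codes gave the best correlation with their own partner. With 2 adult libraries per group, deviations from the group mean mirror each other, so both adult codes had to give the same answer. The count therefore cannot show whether the codes pair libraries. With the code as a replicate block, the counts higher in J2 became 0 in the wild type (Psmb1 adjusted p = 0.078 by limma), 0 in the knock-out (0.10) and 3 for the mean of the 3 conditions, where Psma6, Psmb1 and Psmd7 passed and Psmb7 (0.054) and Psmc2 (0.069) did not. Low read numbers in flow-through limit every difference between fractions.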
